A study of Mus musculus with 12 samples.

Results

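The genes described here are nuclear receptors and other transcription factors of the liver, 47 in all, followed in mouse liver after injection of a cytokine. A gene was counted where a probe set, a group of short oligonucleotide probes on an Affymetrix array, had its symbol as the only gene symbol in the platform annotation. By this rule 44 of the 47 genes had a probe set, out of 8252 genes with one, and together they had 65 of the 12488 probe sets on the array. Rarb, Klf15 and Nr1h2 had none. Of the 65 probe sets, 51 from 38 genes were bright enough to be tested. Pparg, Nr3c1, Nr2f1, Nr4a2, Nr6a1 and Klf4 had probe sets but none that was tested.

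Nuclear receptors are transcription factors that sense small lipid-soluble molecules, among them steroid and thyroid hormones, retinoids, fatty acids, oxysterols, bile acids and foreign compounds, and many of them bind DNA as a pair with a retinoid X receptor (RXR). In hepatocytes they set the level of enzymes for fatty acid oxidation, bile acid synthesis and drug clearance, together with liver-enriched factors such as Hnf4a, the Foxa proteins and Onecut1. REV-ERB and ROR receptors act on shared sites in the circadian clock, and Krüppel-like factors (KLFs) are zinc finger proteins that bind GC-rich DNA. Inflammatory cytokines are known to lower the output of several of these receptors in liver.

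The RNA was total RNA of livers taken 4 h after an injection into the peritoneum, and each of 6 groups had 2 arrays. Control mice, labelled albumin-cre(-) Socs3(w/fl), kept a working Socs3 gene, with 1 of the alleles floxed, and received saline (PBS) or the cytokine interleukin-6 (IL-6). In Socs3-deleted mice, labelled albumin-cre(+) Socs3(-/fl), 1 allele was null in every cell and the floxed allele was lost where the albumin promoter drives Cre, which is in hepatocytes. They received the same injections. Ifng-null mice, labelled Interferon-gamma-/-, were given PBS or interferon-gamma (IFN-γ). Strain, sex and age are not given in the sources used here, and the Ifng-null mice had no untargeted mice injected with IFN-γ beside them. Socs3 encodes a protein that shuts off signalling from the IL-6 receptor, so the design asks how the liver responds to IL-6 with and without this brake, and how it responds to IFN-γ. The labels call the arrays of a group replicates but name no separate animals, so the spread behind each p-value is that between these arrays and may be technical. With 2 arrays in a group every value is of limited precision. An exact two-sided permutation test of 2 arrays against 2 cannot give a p below 0.333, so limma was used, with 1 estimate of the spread shared by all groups.

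Array medians were 80.6 to 85.7 in intensity. Socs3 read 74.4 to 106 in Socs3-deleted livers and 117 to 167 in control livers on one probe set, and 52.6 to 68.4 against 78.8 to 113 on the other. For Ifng the highest reading was 7.81, under the floor of 33.01 below which intensities were not distinguished, so it checks nothing. All 11 hepatocyte marker genes with a probe set were above the floor on all 12 arrays. Summed over 13 pancreatic acinar genes, replicate 2 of the control PBS group read 9839 and replicate 2 of the Socs3-deleted PBS group read 22939, while the other 10 arrays read 1974 to 2191. In both Ifng-null groups, replicate 2 had a low signal for bioB, a bacterial transcript added to the hybridisation mix: its middle probe set read 42.6 and 41.0 there and 281 to 444 on the other 10 arrays. On replicate 1 of the Socs3-deleted IL-6 group the ratio of the 3′ to the 5′ Gapdh control probe set was 3.12, against 1.14 to 1.39 on the other arrays. Its 5′ probe set read 1341 there and 3173 to 4844 elsewhere. This array is 1 of the 2 that enter every member call reported below.

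Among the 51 tested probe sets, limma called 2 lower in Socs3-deleted livers after IL-6 than after PBS, those of Rora and Klf9, and 1 lower in Socs3-deleted than in control livers after IL-6, that of Rora. A call is an adjusted p under 0.05 with Benjamini-Hochberg adjustment over all 9641 tested probe sets. Over all tested probe sets, 0.145% were called lower after IL-6 in Socs3-deleted livers and 1.17% in either direction, and 0.0934% were called lower in Socs3-deleted than in control livers after IL-6 and 0.954% in either direction. Because both comparisons use the same Socs3-deleted IL-6 arrays, the Rora calls are not independent of each other. No member was called higher in any of the 7 comparisons, while 1.03% and 0.861% of all tested probe sets were called higher in these 2.

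In the other comparisons limma called none of the members. Counts below are of probe sets, and a gene with several tested probe sets counts once for each. After IL-6 in control livers 2 of the 51 probe sets had an unadjusted p under 0.05, beside 2.57% of all tested probe sets and 0% called. Of the tests that set the IL-6 response of one genotype against the other, 1 probe set had such a p, beside 3.94%, with 0.0415% called. After IFN-γ in Ifng-null livers it was 5 probe sets, 104506_at and 104507_g_at of Nr1i3 among them, beside 6.93%, with 0.653% called. Between Socs3-deleted and control livers after PBS it was 3 probe sets, all of Nr1i3, beside 4.17%. Between Ifng-null and control livers after PBS it was 1 probe set, beside 3.08%, with 0% called in both comparisons. In the comparisons with calls, 7 member probe sets had an unadjusted p under 0.05 after IL-6 in Socs3-deleted livers. Between the genotypes after IL-6 it was 10, beside 10.8% and 9.09% of all tested probe sets in these comparisons.

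More member probe sets had a lower than a higher mean after IL-6 in Socs3-deleted livers, 37 against 14. Their median log2 change was -0.13, while the median over all tested probe sets was 0.002 and 50.5% of all changes were positive. The hepatocyte markers were also lower in this comparison: their median was -0.32, 1 of 11 was called lower (Hpd, an enzyme of tyrosine breakdown, log2 change -0.57, limma adjusted p = 0.046), and their summed signal was 61326 and 56772 after PBS and 48989 and 47384 after IL-6. Their part in the members' values was not tested. In control livers IL-6 gave 31 negative and 20 positive changes with a median of -0.03, where 45.2% of all tested probe sets had a positive change. Between Socs3-deleted and control livers after IL-6, 37 changes were negative and 14 positive with a median of -0.18, beside a median of -0.013 and 45.2% positive changes over all tested probe sets. In Socs3-deleted livers both IL-6 arrays lay below both PBS arrays for 20 member probe sets and above them for 7. Over all tested probe sets these shares were 21.1% and 19.0%. In Socs3-deleted against control livers after IL-6 the arrays lay apart downward for 19 member probe sets and upward for 7, beside 22.7% and 17.6%. The same counts were 14 and 4 after IL-6 in control livers, beside 14.3% and 12.6%, and 14 and 3 after IFN-γ, beside 17.0% and 9.57%. They were 10 and 5 between Socs3-deleted and control livers after PBS, beside 17.9% and 15.6%, and 13 and 5 between Ifng-null and control livers after PBS, beside 15.1% and 12.6%. Whether the members differ from the other probe sets in these shares was not tested. After IFN-γ 33 member probe sets had a negative and 18 a positive change with a median of -0.10. Over all tested probe sets the median was -0.035 and 39.0% of the changes were positive, so most tested probe sets also had a negative value here. The largest single values in the map of log2 changes were those of Ppara and Rora.

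**Figure D1:**
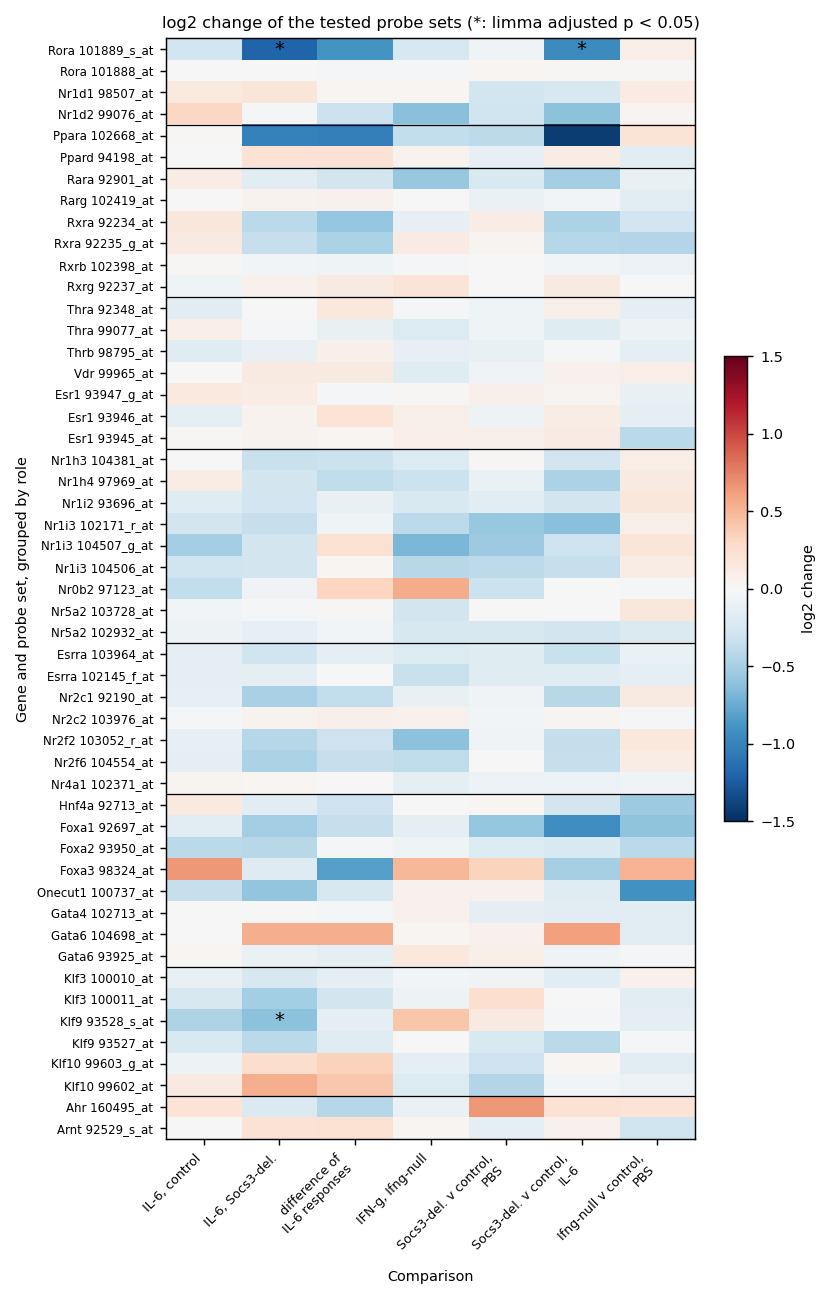
Log2 change of each of the 51 tested probe sets (rows, grouped by role: clock receptors, PPARs, retinoid receptors, hormone receptors, sterol, bile acid and xenobiotic receptors, orphan receptors, liver-enriched factors, KLFs, Ahr and Arnt) in each of the 7 comparisons (columns). Blue is lower, red is higher, and an asterisk marks a limma adjusted p under 0.05, which only Rora (2 comparisons) and Klf9 (1 comparison) reached.

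Rora encodes RORα, an orphan receptor that activates clock genes and genes of lipid metabolism in liver. Its brighter probe set, 101889_s_at, fell in Socs3-deleted livers after IL-6. It read 94.3 and 108 after PBS and 44.4 and 43.6 after IL-6, a log2-scale change of -1.20 ± 0.17 (SE) or 2.29-fold (limma adjusted p = 0.0113). In control livers it read 94.0 and 116 after PBS and 82.9 and 87.3 after IL-6, a log2-scale change of -0.29 (limma adjusted p = 1). Both Socs3-deleted IL-6 arrays lay far below the other 10 arrays, and the PBS and IL-6 arrays of control livers did not overlap either. In bulk liver, fewer cells of a type and less RNA per cell cannot be told apart.

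After IL-6 the same probe set was 1.93-fold lower in Socs3-deleted than in control livers, a log2 difference of -0.95 ± 0.17 (SE; limma adjusted p = 0.0392). After PBS the genotypes differed by -0.05 on the log2 scale. The test of the difference between the IL-6 responses gave -0.90 ± 0.24 (SE; limma adjusted p = 0.71), so it is not shown that the fall was larger without Socs3. In Ifng-null livers Rora read 93.8 and 133 after PBS and 89.9 and 100 after IFN-γ, and these ranges overlapped.

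The second Rora probe set, 101888_at, stayed around the floor on all 12 arrays, at 29.5 to 34.8, and gave log2 changes of 0.00 and 0.02 where the first was called. A probe set at the floor cannot show a fall. In Affymetrix naming the ending _s_at marks a probe set that can match more than 1 transcript of similar sequence, and both called probe sets have it. The probe sequences were not used here, and whether other transcripts contribute was not tested.

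The Rora fall after IL-6 was called in 19 of 24 alternative settings and the genotype difference after IL-6 in 12 of 24. Leaving out replicate 2 of the Socs3-deleted PBS group or replicate 2 of the Socs3-deleted IL-6 group ended the first call (limma adjusted p = 0.0947 and 0.0708). Leaving out both arrays rich in pancreatic enzyme signal, which was decided once the data had been seen, gave -1.10 (limma adjusted p = 0.132). With the floor raised to 83.82, above both Socs3-deleted IL-6 values, the change after IL-6 was -0.27 (limma adjusted p = 0.934). The genotype difference lost its call when any 1 of the 8 control and Socs3-deleted arrays was left out, with limma adjusted p from 0.0531 to 0.3 and log2 differences from -0.99 to -0.91.

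Klf9 encodes a KLF that is induced by glucocorticoid and thyroid hormone. Its probe set 93528_s_at fell in Socs3-deleted livers after IL-6, from 403 and 479 to 278 and 294, a log2-scale change of -0.62 ± 0.12 (SE) or 1.54-fold (limma adjusted p = 0.0421). In control livers it read 422 and 378 after PBS and 274 and 306 after IL-6, a log2-scale change of -0.46 (limma adjusted p = 0.859). In both genotypes every IL-6 array lay below every PBS array, and the responses differed by -0.15 ± 0.17 (SE; limma adjusted p = 0.999). After IL-6 the difference between the genotypes was -0.02 ± 0.12 (SE) on the log2 scale.

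After IFN-γ the Klf9 values lay on the other side: 356 and 364 after PBS and 464 and 499 after IFN-γ in Ifng-null livers, a log2-scale change of 0.42 ± 0.12 (SE; limma adjusted p = 0.305). The arrays did not overlap but the change did not pass. The second Klf9 probe set, 93527_at, read 163 and 172 after PBS and 101 and 158 after IL-6 in Socs3-deleted livers, a log2-scale change of -0.40 (limma adjusted p = 0.561), and its change after IFN-γ was 0.00. The Klf9 call held in 6 of 24 alternative settings and was lost when any 1 of the 12 arrays was left out, with limma adjusted p from 0.0543 to 0.276. Without both arrays with high pancreatic enzyme signal the log2 change was -0.49 (limma adjusted p = 0.317).

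**Figure D2:**
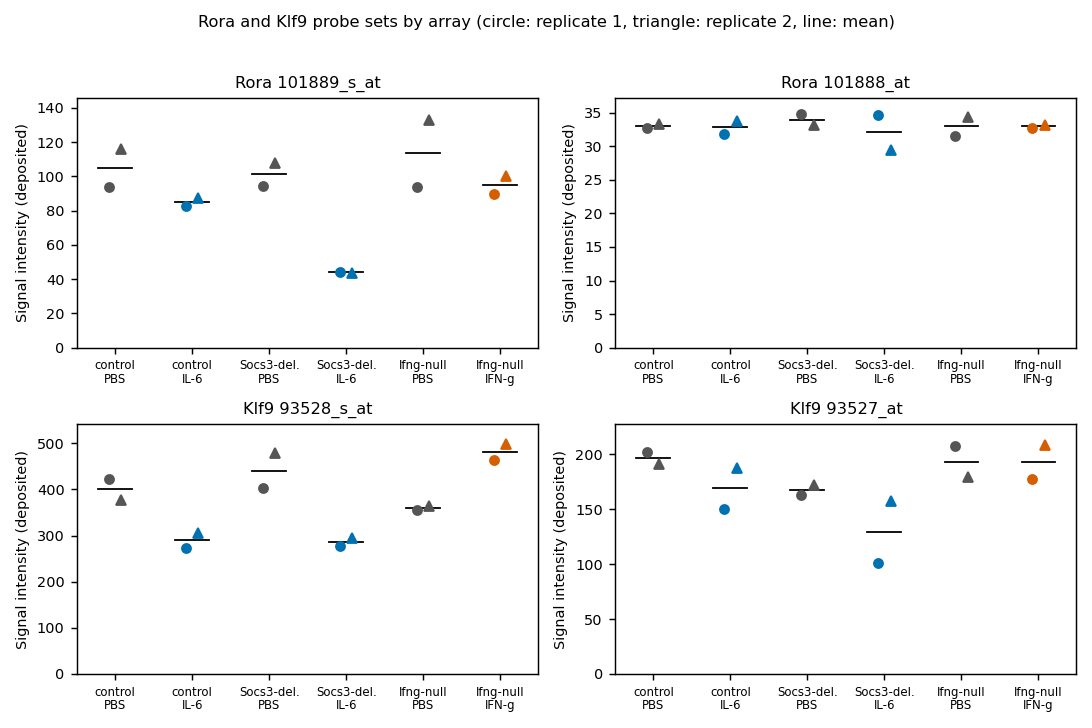
Deposited signal intensity (vertical axis, linear, from 0) of the probe sets of Rora and Klf9 on each array, by group (horizontal axis). Circles are replicate 1, triangles replicate 2 and lines the mean of the 2. Rora 101889_s_at read 44.4 and 43.6 in Socs3-deleted livers after IL-6 and 82.9 or more on the other arrays, Rora 101888_at stayed between 29.5 and 34.8, and Klf9 93528_s_at was lower after IL-6 in both genotypes.

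The sequences before the transcription start of the called genes are shown because IL-6 acts through STAT3, which binds the element TTCNNNGAA. RefSeq promoters of build GRCm38.p6 were used for 41 of the member genes, with 59 windows of 250 bases upstream of a start. A filter by chromosome was applied to the member windows and not to the windows of all genes. In the Klf9 window, chr19:23140976-23141225 on the plus strand, the letters of this element stood 33 bases before the start, and they are in capitals. In the Rora window, chr9:68653536-68653785 on the plus strand, none of the 4 motifs searched was found.
Klf9: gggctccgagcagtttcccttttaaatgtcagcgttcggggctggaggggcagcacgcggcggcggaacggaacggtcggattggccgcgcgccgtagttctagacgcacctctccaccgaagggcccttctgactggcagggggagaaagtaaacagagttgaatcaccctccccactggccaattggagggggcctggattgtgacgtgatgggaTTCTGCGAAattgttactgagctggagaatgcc
Rora: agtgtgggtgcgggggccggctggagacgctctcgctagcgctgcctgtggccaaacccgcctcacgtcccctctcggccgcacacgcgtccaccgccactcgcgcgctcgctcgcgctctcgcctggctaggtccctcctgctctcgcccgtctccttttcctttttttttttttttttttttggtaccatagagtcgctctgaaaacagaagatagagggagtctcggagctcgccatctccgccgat

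The motifs were searched on both strands as exact letters: TTCNNNGAA, the nuclear receptor hexamer AGGTCA, the E-box CACGTG and the GC box CCGCCC, which KLFs bind. The STAT element was in 5 of 59 member windows, or 8.47%, against 7.02% of all 32851 windows. Besides Klf9 it was found in Esr1 as TTCTAGGAA, in Nr0b2 as TTCAATGAA, in Rara as TTCAGTGAA and in Rarb as TTCACCGAA, at 188, 91, 197 and 51 bases before the start. The hexamer was in 16.9% of the member windows against 14.0%, the E-box in 11.9% against 6.02% and the GC box in 50.8% against 32.7%. These are matches of letters, and no binding was measured.

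The REV-ERB receptors Nr1d1 and Nr1d2 repress the clock gene Arntl, and their RNA cycles through the day. Nr1d1 read 413 and 268 in control livers after PBS, 428 and 320 after IL-6, and, in Socs3-deleted livers, 311 and 244 after PBS and 354 and 277 after IL-6. In Ifng-null livers it read 395 and 330 after PBS and 397 and 340 after IFN-γ. In every group replicate 1 read higher than replicate 2, and no comparison separated the groups. Within the PBS groups of control and Socs3-deleted livers, Nr1d2 had the widest replicate gap of the 51 tested probe sets. After PBS it read 228 and 58.1 in control and 155 and 56.1 in Socs3-deleted livers, log2 gaps of 1.97 and 1.47. After IL-6 it read 141 and 143 in control and 105 and 81.0 in Socs3-deleted livers, and in Ifng-null livers 155 and 90.3 after PBS and 80.7 and 72.2 after IFN-γ. Its log2 change after IFN-γ was -0.63 ± 0.61 (SE; limma adjusted p = 1).

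Both PBS arrays with low Nr1d2 are the ones with high pancreatic enzyme signal. Dbp, a clock output factor, read 32.6 and 34.2 there and 197 and 74.8 on their partner arrays. Arntl, the activating arm of the clock, read 90.5 and 141 on these arrays and 39.5 and 53.1 on the partners. So within the PBS groups of control and Socs3-deleted livers Nr1d2 and Dbp were low where Arntl was high, and the pancreatic enzyme signal moved with them. Replicate 2 of the Ifng-null PBS group, with a pancreatic sum of 2189, was also the lower array of its group for Nr1d2 (90.3 against 155) and Dbp (58.7 against 105) and the higher for Arntl (63.3 against 42.7). The part of pancreatic RNA in this pattern was not tested further, and the labels give no time of day for any mouse. Of 7 listed targets of REV-ERB and ROR receptors none was called in any comparison, and the median log2 change was -0.39 after IL-6 in control livers and -0.17 in Socs3-deleted livers.

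**Figure D3:**
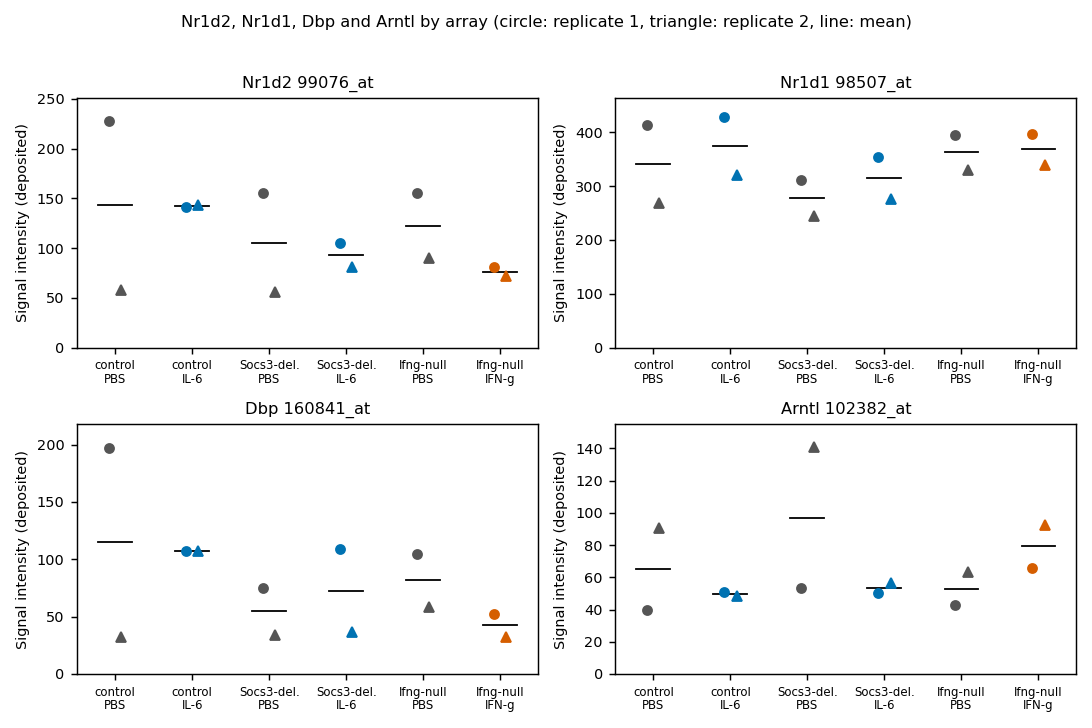
Deposited signal intensity (linear, from 0) of Nr1d2, Nr1d1, Dbp and Arntl on each array by group; circles are replicate 1, triangles replicate 2 and lines the mean. In both PBS groups of control and Socs3-deleted livers Nr1d2 and Dbp were lower and Arntl higher on replicate 2, for example 58.1 against 228 for Nr1d2 in control livers.

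Of the peroxisome proliferator-activated receptors (PPARs), which sense fatty acids, Ppara showed the widest spread. It drives hepatic fatty acid oxidation. It read 612 and 460 in control livers after PBS and 506 and 573 after IL-6, 397 and 414 in Socs3-deleted livers after PBS and 424 and 95.4 after IL-6, and 577 and 655, then 382 and 595, in Ifng-null livers after PBS and IFN-γ. A single array, replicate 2 of the Socs3-deleted IL-6 group, was low. Against control livers after IL-6 the log2 difference was -1.42 ± 0.54 (SE; limma adjusted p = 0.427). Without replicate 1 of the Socs3-deleted IL-6 group, the array with the high Gapdh ratio, it was -2.50 (limma adjusted p = 0.00425), and without replicate 2 it was -0.34, so this value rests on which of the 2 arrays is kept.

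Ppard, which is found in most tissues, read 52.6 to 68.1 over all 12 arrays and was called in no comparison. Pparg, the fat cell receptor, read at most 18.6 and was at or under the floor on all arrays. Of 24 listed PPARα targets 17 were tested. In Socs3-deleted against control livers after IL-6 1 of them was lower, Plin2, the coat protein of lipid droplets, which read 3448 and 3532 in control and 1867 and 1738 in Socs3-deleted livers (log2 difference -0.95, limma adjusted p = 0.0341). The median of the list in that comparison was -0.42, beside -0.013 over all tested probe sets. In the other comparisons no target was called, and the medians lay between -0.20 and 0.22. The oxidation genes Cpt1a, Acadm and Hadhb, named after their values were seen, had log2 differences of -0.45, -0.44 and -0.66 between the genotypes after IL-6, none of which passed.

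Among the retinoid receptors Rara, which binds retinoic acid, came closest to the threshold without passing. In Ifng-null livers it read 77.7 and 91.4 after PBS and 56.7 and 56.9 after IFN-γ, a log2-scale change of -0.57 ± 0.11 (SE; limma adjusted p = 0.0602). After IL-6 it read 94.1 and 103 in control and 70.3 and 67.6 in Socs3-deleted livers, a log2 difference of -0.51 (limma adjusted p = 0.0715). After PBS the levels were 91.6 and 90.0 in control and 74.5 and 80.7 in Socs3-deleted livers. In all of these comparisons the arrays of the groups did not overlap. With array weights the genotype difference after IL-6 passed (limma adjusted p = 0.0191). With a replicate block within the Ifng-null arrays, which was decided once the data had been seen, the change after IFN-γ passed (limma adjusted p = 0.0403). Without replicate 2 of both Ifng-null groups, the arrays of low bioB signal, that change was -0.45 (limma adjusted p = 1).

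Rxra encodes the main RXR of liver, the partner of most of the receptors described here. Its probe set 92234_at read 620 and 551 in control livers after PBS, 647 and 667 after IL-6, 643 and 623 in Socs3-deleted livers after PBS and 490 and 462 after IL-6. The Socs3-deleted IL-6 arrays were the lowest of these 8 arrays, with a log2-scale change of -0.41 ± 0.30 (SE; limma adjusted p = 0.768), and the second probe set, 92235_g_at, gave -0.34. The Ifng-null replicates, which share the estimate of the spread, read 646 and 354 after PBS and 593 and 325 after IFN-γ.

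The same replicate 2 arrays of the Ifng-null groups were low for Hnf4a, which read 934 and 383 after PBS and 917 and 384 after IFN-γ. They are the arrays with the low bioB signal. Their ratio of the 3′ to the 5′ control probe set of pyruvate carboxylase was 4.55 and 6.19, against 1.40 to 2.11 on the other 10 arrays. The other controls did not share this: the same ratio was 1.20 and 1.14 for Gapdh, against 1.23 to 3.12. For actin it was 1.37 and 1.44, against 1.53 to 1.88. The 5′ probe set of the spike-in bioDn read 316 and 315, against 322 to 479. The part of array quality in the low Hnf4a and Rxra values was not tested. With both arrays left out, the difference between the IL-6 responses for Rxra 92234_at was -0.58 (limma adjusted p = 0.653), against -0.58 (limma adjusted p = 0.999) with them, as these arrays enter it through the spread alone. Rxrb read 551 to 693, Rxrg 57.4 to 77.6 and Rarg 93.5 to 119 over the 12 arrays, and none of them had a change beyond 0.19 on the log2 scale. Of 8 listed retinoid targets 4 were tested and none was called.

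**Figure D4:**
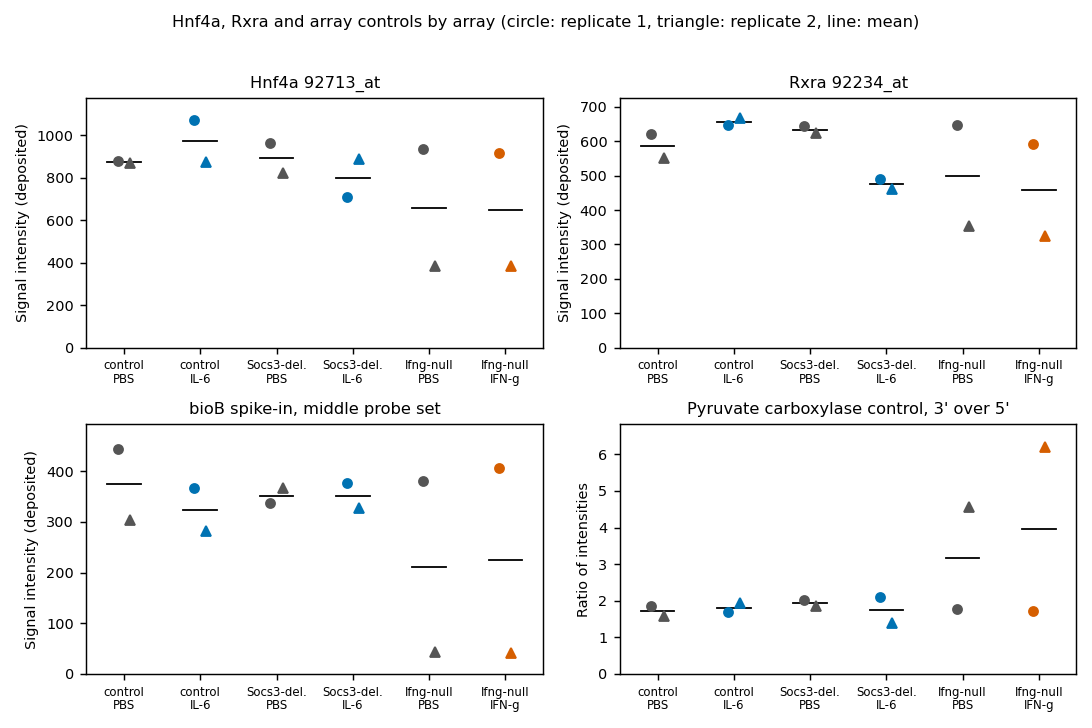
Deposited signal intensity (linear, from 0) of Hnf4a, Rxra and the bioB spike-in, and the ratio of the 3′ to the 5′ control probe set of pyruvate carboxylase, on each array by group; circles are replicate 1, triangles replicate 2 and lines the mean. Replicate 2 of both Ifng-null groups had low Hnf4a (383 and 384), low Rxra (354 and 325), low bioB (42.6 and 41.0) and a high ratio (4.55 and 6.19).

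The hormone receptors had no log2 change beyond 0.41 in size in any comparison. The thyroid hormone receptor Thra read 240 to 286 on its probe set 92348_at and Thrb 127 to 171. The vitamin D receptor Vdr read 57.8 to 74.9 on its tested probe set, and the oestrogen receptor Esr1 107 to 151 on its probe set 93947_g_at. The widest change in this role was that of Esr1 93945_at between Ifng-null and control livers after PBS, 59.3 and 51.0 against 73.9 and 71.9, a log2 difference of -0.41 (limma adjusted p = 0.873), and the other Esr1 probe sets gave -0.14 and -0.11. The glucocorticoid receptor Nr3c1 read 12.8 to 27.9 and was at or under the floor on all arrays, so its level could not be followed.

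Of 12 listed glucocorticoid targets, all tested, 1 was higher in Socs3-deleted than in control livers after IL-6: Sgk1, a kinase of salt and nutrient transport, which read 72.9 and 81.0 in control and 180 and 228 in Socs3-deleted livers (log2 difference 1.40, limma adjusted p = 0.025). After PBS it read 93.0 and 87.8 in control and 211 and 137 in Socs3-deleted livers, so the genotypes did not overlap after PBS either. Between the genotypes after IL-6 the median log2 difference of the list was 0.37, beside -0.01 over all tested probe sets. The median log2 change from PBS to IL-6 was -0.12 in control and -0.11 in Socs3-deleted livers. None of 4 tested thyroid hormone targets was called, with medians between -0.61 and 0.34.

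The sterol, bile acid and xenobiotic receptors had mostly lower means after either cytokine, without a call. Their 9 tested probe sets come from 6 genes, with 3 of Nr1i3 and 2 of Nr5a2, so they are not separate observations. After IL-6 in Socs3-deleted livers 9 had a negative change, with a median log2 change of -0.27. After IFN-γ 8 had a negative change, with a median of -0.28. Over all tested probe sets, 50.5% and 39.0% of the changes were positive in these comparisons. Nr1i3, the constitutive androstane receptor (CAR), which switches on drug-clearing enzymes, read 866 and 825 in control and 617 and 524 in Socs3-deleted livers after PBS on its probe set 102171_r_at, a log2 difference of -0.57 ± 0.20 (SE; limma adjusted p = 0.951). Its other probe sets gave -0.55 and -0.39. So on all 3 probe sets, which share the RNA and are not replicates, the Socs3-deleted PBS arrays lay below the control PBS arrays.

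After IL-6 Nr1i3 102171_r_at read 555 and 870 in control and 416 and 486 in Socs3-deleted livers (log2 difference -0.63, limma adjusted p = 0.286). In Ifng-null livers its probe set 104507_g_at read 552 and 638 after PBS and 335 and 411 after IFN-γ, a log2-scale change of -0.68 ± 0.21 (SE; limma adjusted p = 0.384), and 104506_at and 102171_r_at gave -0.42 and -0.39. None of these passed. The summed hepatocyte marker signal was also lower in some of these groups: in Ifng-null livers it was 54534 and 54860 after PBS and 43563 and 49281 after IFN-γ, and the values after IL-6 in Socs3-deleted livers are given above with the counts over all members. Its part in the lower receptor values was not tested.

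**Figure D5:**
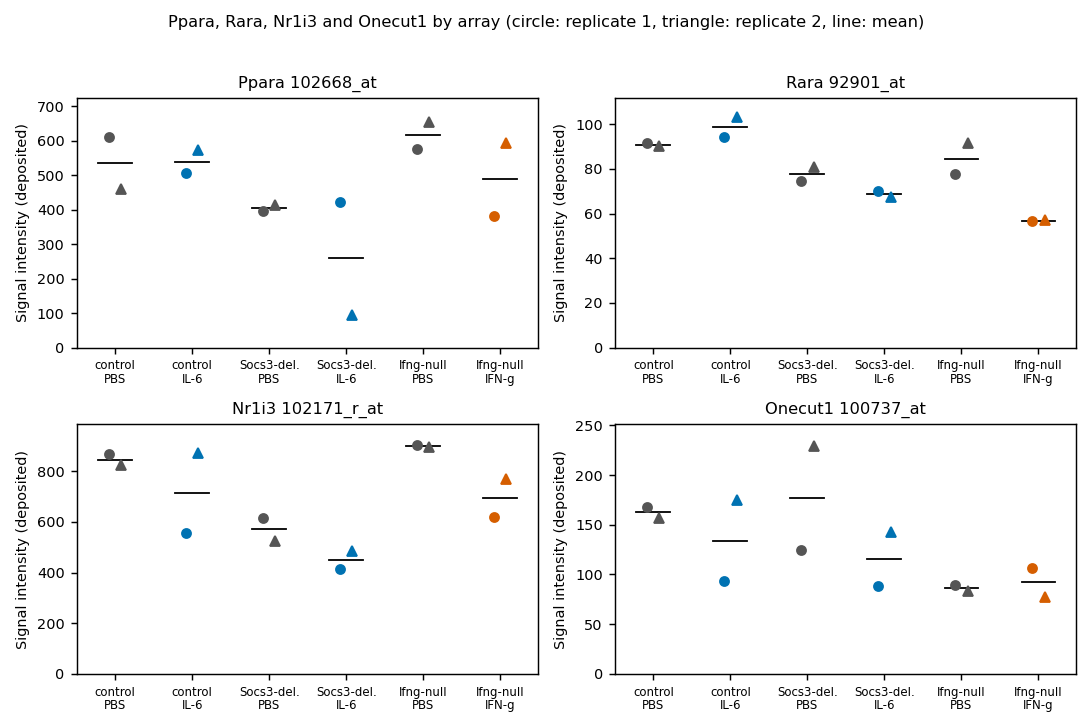
Deposited signal intensity (linear, from 0) of Ppara, Rara, Nr1i3 and Onecut1 on each array by group; circles are replicate 1, triangles replicate 2 and lines the mean. Ppara had a single low array (95.4) in Socs3-deleted livers after IL-6, Rara read 56.7 and 56.9 after IFN-γ, Nr1i3 was lower in Socs3-deleted than in control livers after PBS, and Onecut1 was lower in Ifng-null than in control livers after PBS.

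The bile acid receptor Nr1h4 (FXR) read 355 and 404 in control and 299 and 247 in Socs3-deleted livers after IL-6, a log2 difference of -0.48 (limma adjusted p = 0.286). Its target Nr0b2, the repressor SHP, was the member of this role with a positive change after IFN-γ: 308 and 315 after PBS and 518 and 406 after IFN-γ, a log2-scale change of 0.56 ± 0.35 (SE; limma adjusted p = 0.93). In Socs3-deleted livers after IL-6 Nr0b2 read 384 and 159, so its replicates lay on either side of the PBS arrays at 248 and 262. The oxysterol receptor Nr1h3 (LXRα) read 244 to 454, the pregnane X receptor Nr1i2 52.7 to 96.4 and the bile acid regulator Nr5a2 156 to 228 on its probe set 103728_at, with log2 changes between -0.33 and 0.17.

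Of the listed LXR targets 8 were tested, and 1 rose after IL-6 in Socs3-deleted livers: Abca1, the cholesterol exporter, from 470 and 462 to 889 and 1050 (log2 change 1.05, limma adjusted p = 0.0113). A second, dimmer Abca1 probe set, 97198_at, read 320 and 293 after PBS and 254 and 683 after IL-6, so its IL-6 arrays lay on either side of the PBS arrays. In control livers the first probe set read 377 and 345 after PBS and 616 and 589 after IL-6, a log2-scale change of 0.74 (limma adjusted p = 0.602). The list as a whole did not follow it, with a median of -0.21. None of 7 tested FXR targets and none of 14 tested CAR and pregnane X receptor targets was called. Among the former, Cyp8b1, an enzyme of bile acid synthesis that was named after its values were seen, read 1330 and 1421 in control and 507 and 591 in Socs3-deleted livers after IL-6 (log2 difference -1.33, limma adjusted p = 0.0566).

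The orphan receptors, whose ligands are unknown or disputed, also had mostly negative changes. Nr2f6, a repressor, read 426 and 460 after PBS and 378 and 267 after IL-6 in Socs3-deleted livers, a log2-scale change of -0.48 (limma adjusted p = 0.356). Nr2c1 read 90.9 and 76.7 after PBS and 56.7 and 62.2 after IL-6, a change of -0.49 (limma adjusted p = 0.234). Esrra 103964_at, whose gene drives mitochondrial genes, read 299 and 268 after PBS and 253 and 209 after IL-6, a change of -0.30 (limma adjusted p = 0.378). On these 3 probe sets the arrays did not overlap, and none passed. The other Esrra probe set, 102145_f_at, read 93.7 and 72.2 after PBS and 83.3 and 67.8 after IL-6, which overlap. After IFN-γ the largest change of this role was that of Nr2f2 103052_r_at, from 104 and 179 to 77.3 and 104 (log2 change -0.61, limma adjusted p = 0.652).

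Nr4a1, an immediate-early gene in many tissues, read 69.0 to 94.3 on the 12 arrays with no change beyond 0.14 on the log2 scale. Nr2c2 103976_at lay around the floor at 27.7 to 37.2. Nr2f1, Nr4a2 and Nr6a1 had no tested probe set: Nr2f1 read at most 10.5 and Nr6a1 at most 23.0, and for Nr4a2 a single array was above the floor, at 33.4. For these genes a change in either direction under the floor would not have been seen.

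Of the liver-enriched factors none was called. Hnf4a, which maintains hepatocyte identity, read 877 and 868 in control livers after PBS, 1074 and 872 after IL-6, 963 and 824 in Socs3-deleted livers after PBS and 711 and 888 after IL-6. The groups overlapped in each comparison of these 8 arrays, and no log2 change among them exceeded 0.31 in size. None of 11 tested Hnf4a targets was called, with medians between -0.27 and 0.08.

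The forkhead factors Foxa1, Foxa2 and Foxa3 open chromatin in liver. Foxa1 read 62.8 and 134 in control and 57.3 and 40.2 in Socs3-deleted livers after IL-6, a log2 difference of -0.93 ± 0.40 (SE; limma adjusted p = 0.51). In control livers after PBS it read 77.5 and 137, so replicate 2 was the higher array in both control groups. Replicate 2 was also higher after PBS in Socs3-deleted livers (54.8 and 86.9) and in Ifng-null livers (58.2 and 79.2). After IFN-γ it was the lower array (65.7 and 58.4), as in Socs3-deleted livers after IL-6. Foxa3 read 272 and 229 after PBS and 420 and 365 after IL-6 in control livers, a log2-scale change of 0.65 ± 0.30 (SE; limma adjusted p = 1), and 281 and 352 after PBS, then 371 and 206 after IL-6, in Socs3-deleted livers. In Ifng-null livers it read 303 and 423 after PBS and 411 and 622 after IFN-γ. Foxa2 read 233 to 402 over the 12 arrays.

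Onecut1, also called HNF6, read 168 and 157 in control and 89.6 and 83.1 in Ifng-null livers after PBS, a log2 difference of -0.91 ± 0.36 (SE; limma adjusted p = 0.873). Both Ifng-null groups were low, with 107 and 77.3 after IFN-γ, while control livers after IL-6 gave 93.1 and 175. Gata4 read 172 to 235 on all arrays. Gata6 had 2 probe sets above the floor that disagreed. Its probe set 104698_at read 84.7 and 85.2 after PBS and 96.2 and 159 after IL-6 in Socs3-deleted livers, a log2-scale change of 0.54 (limma adjusted p = 0.342). The other, 93925_at, read 62.2 to 75.5 on all arrays and gave -0.10. The value of 104698_at rests on replicate 2, since without replicate 1 it was 0.91.

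Other liver factors from a separate list were compared beside them. Of 9 tested, 1 was higher in Socs3-deleted than in control livers after IL-6: Cebpd, an acute phase activator, which read 178 and 141 in control and 672 and 881 in Socs3-deleted livers (log2 difference 2.28, limma adjusted p = 0.0194). The macrophage markers summed to 3266 and 3381 in control and 5259 and 4206 in Socs3-deleted livers after IL-6. Of the 11 tested, 1, Cd14, was called higher in that comparison (log2 difference 1.44, limma adjusted p = 8.68e-04). After PBS the markers summed to 3322 and 2923 in control and 3556 and 4281 in Socs3-deleted livers, so the genotypes did not overlap after PBS either. The part of macrophages in the values of Cebpd was not tested. Of 11 tested coregulators, which link receptors to chromatin enzymes, none was called in any comparison, with medians between -0.06 and 0.10.

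Besides Klf9, the KLF genes Klf3 and Klf10 were tested. Klf3 100011_at read 107 and 99.2 after PBS and 86.1 and 61.1 after IL-6 in Socs3-deleted livers, a log2-scale change of -0.51 (limma adjusted p = 0.245), and 100010_at gave -0.24. Klf10, which is induced by transforming growth factor beta, read 89.3 and 115 after PBS and 160 and 136 after IL-6 on 99602_at, a log2-scale change of 0.54 ± 0.34 (SE; limma adjusted p = 0.684), and 133 and 137, then 182 and 143, on 99603_g_at. Its replicates in control livers also lay apart, at 165 and 115 after PBS and 193 and 119 after IL-6. Klf4 read at most 27.0.

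Ahr, the receptor for dioxin-like compounds, and its partner Arnt were called in no comparison. Ahr read 93.2 and 58.8 in control and 115 and 117 in Socs3-deleted livers after PBS, a log2 difference of 0.65 ± 0.33 (SE; limma adjusted p = 0.951). Without both arrays with high pancreatic enzyme signal this difference was 0.30. In control livers after IL-6 the Ahr replicates read 56.4 and 130, the widest gap of any member in that group. Arnt read 115 to 173 over the 12 arrays on 92529_s_at. Of 5 tested Ahr targets none was called. Tiparp, named after its values were seen, read 61.7 and 51.8 in control and 125 and 414 in Socs3-deleted livers after IL-6 (log2 difference 2.01, limma adjusted p = 0.0778).

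In all, 17 genes had several probe sets and 11 had several that were tested. In 9 of these 11 the log2 changes of the probe sets stayed within 0.5 of each other in every comparison. Rora and Gata6 were the exceptions, with gaps up to 1.19 and 0.68 in the comparisons that use the Socs3-deleted IL-6 arrays. For Rora the second probe set lay around the floor, so its gap is not a disagreement between measured levels. For Esr1, Nr1i3, Rxra, Thra, Esrra, Nr5a2, Klf3, Klf9 and Klf10 the largest gaps were 0.30, 0.31, 0.24, 0.28, 0.17, 0.40, 0.30, 0.42 and 0.28. Of the 14 probe sets that were not tested, 13 were at or under the floor on all arrays, so 6 tested genes, Vdr, Esr1, Nr2c2, Nr2f2, Gata6 and Arnt, also had a probe set without a measurable level.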

How the data were processed

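Affymetrix arrays had been used to measure liver RNA, 2 arrays for each of 6 groups. The signal intensity deposited by the authors, 1 value per probe set and array, was used on its linear scale. The software, scaling and detection rule behind it are not given in the sources used here. Intensities below the 25th percentile of all values (33.01) were set to that floor and taken to log2. Of 12488 probe sets, 66 control probe sets and those above the floor on fewer than 2 arrays were left out, which left 9641. Group means were fitted to all 12 arrays with limma 3.58.1 in R 4.3.3 (6 residual and 3.38 prior degrees of freedom), and 7 comparisons were tested with Benjamini-Hochberg adjustment over all tested probe sets at 0.05. Probe sets were ranked by mean intensity only to choose which to name or list; brightness is not a measure of the amount of RNA between probe sets. The fit was also run on simulated data with known changes, with noise drawn independently for each probe set and array. Such data hold no deviations shared between arrays, so this run does not give the error rates of the present data.

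Members and gene lists were chosen with earlier results of these data known. Named with full statistics are members past the threshold, the brightest gene and the gene with the largest change in each role, genes whose probe sets differ by more than 0.5 in log2 change, and called genes of the lists. Other genes named were chosen after their values were seen. A list has 1 probe set per gene, the brightest. In all, 26 alternatives were tried, covering floors, filters, normalization, array weights, replicate blocks and arrays left out. Several of these, the exclusion of both array pairs among them, were chosen after seeing the data. Promoter sequences and gene starts came from RefSeq tables of GRCm38.p6. Tables and figures were made with pandas 2.3.3 and matplotlib 3.10.9. Control livers were the background for the Socs3-deleted livers, and PBS for each cytokine. The number of arrays limits the precision.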

Additional observations from a re-analysis of the deposited data

Results flagged for a closer look

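Members whose 2 groups moved in opposite directions without overlap of the arrays were looked for. Rxra 92234_at had a log2 change after IL-6 of 0.17 in control and -0.41 in Socs3-deleted livers, a difference of -0.58 (limma adjusted p = 0.999). Seen the other way, its Socs3-deleted arrays differed from control arrays by 0.11 after PBS and by -0.47 after IL-6, which is the same difference of -0.58. Rara 92901_at had a log2 change after IL-6 of 0.11 in control and -0.17 in Socs3-deleted livers, a difference of -0.28 (limma adjusted p = 0.999). None of these differences passed the test. Such opposite IL-6 responses were found for 329 of 9641 tested probe sets, or 3.41%, and for 2 members.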

How the results depend on the processing

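Over 39 named changes and their alternatives, 943 values in all, 891 kept their direction and their side of the threshold, 35 lost the call, 6 gained one and 11 turned sign. The member count for IL-6 in Socs3-deleted livers, 2 as reported, became 1 with the floor at the 50th percentile (Klf3), 1 with an intensity trend, 1 with only the arrays compared and 1 without both Ifng-null arrays of low bioB signal (Rora in all 3). It became 0 without a filter and 0 without both arrays of high pancreatic enzyme signal. Leaving out 1 array at a time gave 0 to 3, with 0 without replicate 2 of the Socs3-deleted PBS or IL-6 group and 3 (Gata6, Ppara and Rora) without replicate 1 of the Socs3-deleted IL-6 group. The count for Socs3-deleted against control livers after IL-6, 1 as reported, became 0 with the floor at the 50th percentile, without a filter, without both pancreatic arrays and when the fit held the compared arrays alone. Array weights gave 2 (Rara and Rora). Leaving out 1 array at a time gave 0 to 2. The other comparisons had 0 members called under every alternative run, except IFN-γ with a replicate block within the Ifng-null arrays, where it was 1 (Rara, limma adjusted p = 0.0403).

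With the floor at the 50th percentile, 83.82, which lies above both Socs3-deleted IL-6 values of Rora 101889_s_at, its log2 change after IL-6 was -0.27 and the difference between the IL-6 responses turned to 0.02. Rora 101888_at, which lies at the floor, gave -0.04 between the genotypes after IL-6 with the floor at the 10th percentile and -0.04 without a floor, and leaving out 1 array at a time moved that value from -0.02 to 0.05, its IL-6 change in Socs3-deleted livers from -0.04 to 0.03 and the difference of the IL-6 responses from -0.05 to 0.02. Gata6 93925_at moved from -0.12 to 0.02 between the genotypes after IL-6 in the same way. The cause was not tested.

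Same-numbered arrays correlated in their deviations from -0.254 to 0.665, and the numbers were not taken to pair the samples. The value of 0.665 was between both Ifng-null groups, whose replicate 2 arrays had low bioB signal. In every group replicate 2 read lower on the 5′ probe set of the spike-in CreX, for example 2131 against 3835 (Ifng-null PBS) and 3567 against 3580 (Socs3-deleted PBS). Erythroid markers summed higher on replicate 2 in every group, for example 7206 against 1289 (control PBS). The cause was not tested. With a replicate block the member counts stayed at 2 and 1 in the comparisons with calls (Klf9 with limma adjusted p = 0.0438 and Rora with 0.00622 after IL-6, Rora with 0.0179 between the genotypes) and 0 elsewhere. The crossed replicate block for Ifng-null against control livers gave 0 calls.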
